A study of Mus musculus with 18 samples.

Results

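Of the 20665 autosomal protein-coding mouse genes, 51 form the core of the WNT pathway: 19 WNT ligands, 10 Frizzled receptors, the coreceptors Lrp5 and Lrp6, 4 R-spondins, 4 secreted Frizzled-related proteins (SFRPs), 4 Dickkopf (DKK) proteins, 4 genes of the β-catenin destruction complex and its substrate (Apc, Axin1, Axin2 and Ctnnb1) and 4 TCF/LEF factors. They were chosen by symbol, not by any value. Around these genes, the summits of NFIA and NFIB, 2 DNA-binding proteins of the nuclear factor I (NFI) family, were counted in CUT&Tag data. In this assay an antibody brings a transposase to the sites of a bound protein. There were 18 libraries from 3 stages of a mouse model of medulloblastoma, a tumor of the cerebellum. The stages were granule neuron progenitors (GNPs) from cerebellum at postnatal day 7, cells of the day 28 hyperplasia, and medulloblastoma cells of adult animals, all isolated on a Percoll density gradient. From each stage came 3 preparations, with 1 NFIA and 1 NFIB library apiece from 100000 cells. The labels call the model genetically engineered but name no allele, and they do not say whether the GNPs carry the engineered alleles. Stage and age changed together and cannot be told apart. Nothing says that the preparations came from separate animals, so p-values measure the spread between these preparations, which may be technical. A cell line that the series mentions was not analysed here.

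WNT ligands are secreted lipid-modified glycoproteins that bind Frizzled receptors and the LRP coreceptors. In the canonical branch this stops the destruction complex of APC, AXIN and kinases from marking β-catenin for degradation, and β-catenin then enters the nucleus and acts with TCF/LEF factors. SFRPs and several DKK proteins restrain the signal outside the cell, R-spondins strengthen it, and Axin2 is both an inhibitor and a widely used target gene of the pathway. In the cerebellum, WNT signals act in the early patterning of the midbrain and hindbrain and in the growth of synapses, and active β-catenin defines one of the molecular groups of human medulloblastoma.

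The start regions of 6 genes show the kind of sequence in which the summits near WNT genes did or did not lie. Each sequence below is the 250 bases before an annotated transcription start, 5′ to 3′ on the strand of the gene, from RefSeq on GRCm38.p6 (mm10). Capitals mark the NFI half-site TTGGC or its reverse complement GCCAA; the full palindromic site is TTGGC followed, 5 bases on, by GCCAA. Fzd5 (chr1:64737751-64738000, minus strand), Fzd4 (chr7:89404116-89404365, plus strand) and Fzd7 (chr1:59481897-59482146, plus strand) are shown because their starts were among the most often marked by a summit. Axin2 (chr11:108920099-108920348, plus strand) and Ctnnb1 (chr9:120933150-120933399, plus strand) are shown because their starts held summits in more hyperplasia than GNP libraries. Wnt4 (chr4:137277385-137277634, plus strand) is shown because it is a gene with many summits and none at its start.

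Fzd5: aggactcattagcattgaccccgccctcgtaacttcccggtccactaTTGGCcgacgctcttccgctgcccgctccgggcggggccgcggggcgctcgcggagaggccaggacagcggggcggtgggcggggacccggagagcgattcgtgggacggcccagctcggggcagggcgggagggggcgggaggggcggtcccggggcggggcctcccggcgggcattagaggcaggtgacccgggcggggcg
Fzd4: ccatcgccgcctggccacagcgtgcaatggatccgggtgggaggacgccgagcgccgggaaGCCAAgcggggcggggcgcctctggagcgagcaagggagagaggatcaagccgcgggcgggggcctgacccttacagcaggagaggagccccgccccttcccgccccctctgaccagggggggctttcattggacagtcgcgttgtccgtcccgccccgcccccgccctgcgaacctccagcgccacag
Fzd7: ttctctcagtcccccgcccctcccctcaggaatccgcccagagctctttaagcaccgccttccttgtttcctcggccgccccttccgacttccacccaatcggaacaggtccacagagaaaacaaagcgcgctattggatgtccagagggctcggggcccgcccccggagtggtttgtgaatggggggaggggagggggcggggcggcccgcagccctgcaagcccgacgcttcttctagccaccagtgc
Axin2: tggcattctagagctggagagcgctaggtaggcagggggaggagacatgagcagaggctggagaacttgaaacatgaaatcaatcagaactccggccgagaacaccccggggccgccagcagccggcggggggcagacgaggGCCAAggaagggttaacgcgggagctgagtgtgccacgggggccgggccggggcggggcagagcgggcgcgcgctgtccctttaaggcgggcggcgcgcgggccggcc
Ctnnb1: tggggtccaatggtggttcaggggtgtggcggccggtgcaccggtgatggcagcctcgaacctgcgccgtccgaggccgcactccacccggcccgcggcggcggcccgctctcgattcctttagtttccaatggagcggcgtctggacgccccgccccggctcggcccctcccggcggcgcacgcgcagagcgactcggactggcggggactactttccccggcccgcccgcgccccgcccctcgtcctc
Wnt4: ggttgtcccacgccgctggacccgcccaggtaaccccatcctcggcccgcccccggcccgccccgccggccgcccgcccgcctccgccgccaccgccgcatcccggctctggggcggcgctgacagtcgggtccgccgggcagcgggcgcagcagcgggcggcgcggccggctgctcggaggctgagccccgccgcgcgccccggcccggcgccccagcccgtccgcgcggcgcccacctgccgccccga

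Among these 6 windows, those of Fzd5, Fzd4 and Axin2 held 1 half-site each, and those of Fzd7, Ctnnb1 and Wnt4 held none. Over all 20085 windows of autosomal protein-coding genes, 43.1% held a half-site in the 250 bases and 0.0349% the full site. Of the 42 windows of WNT genes, 16 (38.1%) held a half-site and 0 the full site. A match is a string of letters and not a site shown to be bound.

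A library list held between 49948 and 385466 summits, each with a −log10 score from the authors' peak caller, and read depth is unknown. Comparisons therefore used the top 30000 autosomal summits by score from every library, each of them given to the nearest gene span within 100 kb. Chromosome 6 took 5.16% to 5.32% of the top summits in GNP preparations, 5.33% to 5.49% in hyperplasia and 6.89% to 7.18% in tumors, and 6 WNT genes lie there (Wnt2, Wnt16, Wnt7a, Wnt5b, Tcf7l1 and Lrp6). In 6 of the 18 libraries the deposited name carries the other target than the sample title, and titles were followed. Marker genes can be followed here by summits only, not by expression. The 11 granule progenitor genes together had 106 to 118 summits per GNP preparation, 83 to 96 in hyperplasia and 102 to 107 in tumors. The astrocyte and Bergmann glia list had 26 to 30, 26 to 32 and 20 to 28 (Aqp4 and S100b had none), the oligodendrocyte list 34 to 39, 28 to 41 and 34 to 36, and the vascular and meningeal list 36 to 48, 29 to 38 and 40 to 49. Microglia genes had 2 to 4, 3 to 7 and 3 to 5 (Aif1 none), and Purkinje cell and interneuron genes 5 to 7, 4 to 7 and 3 to 4 (Pcp2 none). The part of cell mixture in the results below was not tested, and a region bound in fewer cells cannot be told apart from one bound more weakly in each cell.

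The summed summits of the WNT genes were similar at the 3 stages. A preparation had 234, 213 and 217 summits at the 51 genes in GNPs, 233, 214 and 208 in hyperplasia, and 223, 226 and 227 in tumors, so the ranges of the stages overlapped. Split by chromosome, the 6 genes of chromosome 6 had 35, 25 and 27 summits in GNPs, 29, 28 and 25 in hyperplasia and 37, 39 and 45 in tumors, the last above all others. The other 45 genes had 199, 188 and 190, then 204, 186 and 183, then 186, 187 and 182. WNT genes held 0.413% of all assigned summits on 0.307% of the territory nearest to genes, which is 2.06 summits per 100 kb and library against 1.53 over all genes. Of the 51 genes, 26 (51.0%) exceeded 1.53, as did 43.7% of all genes.

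**Figure D1:**
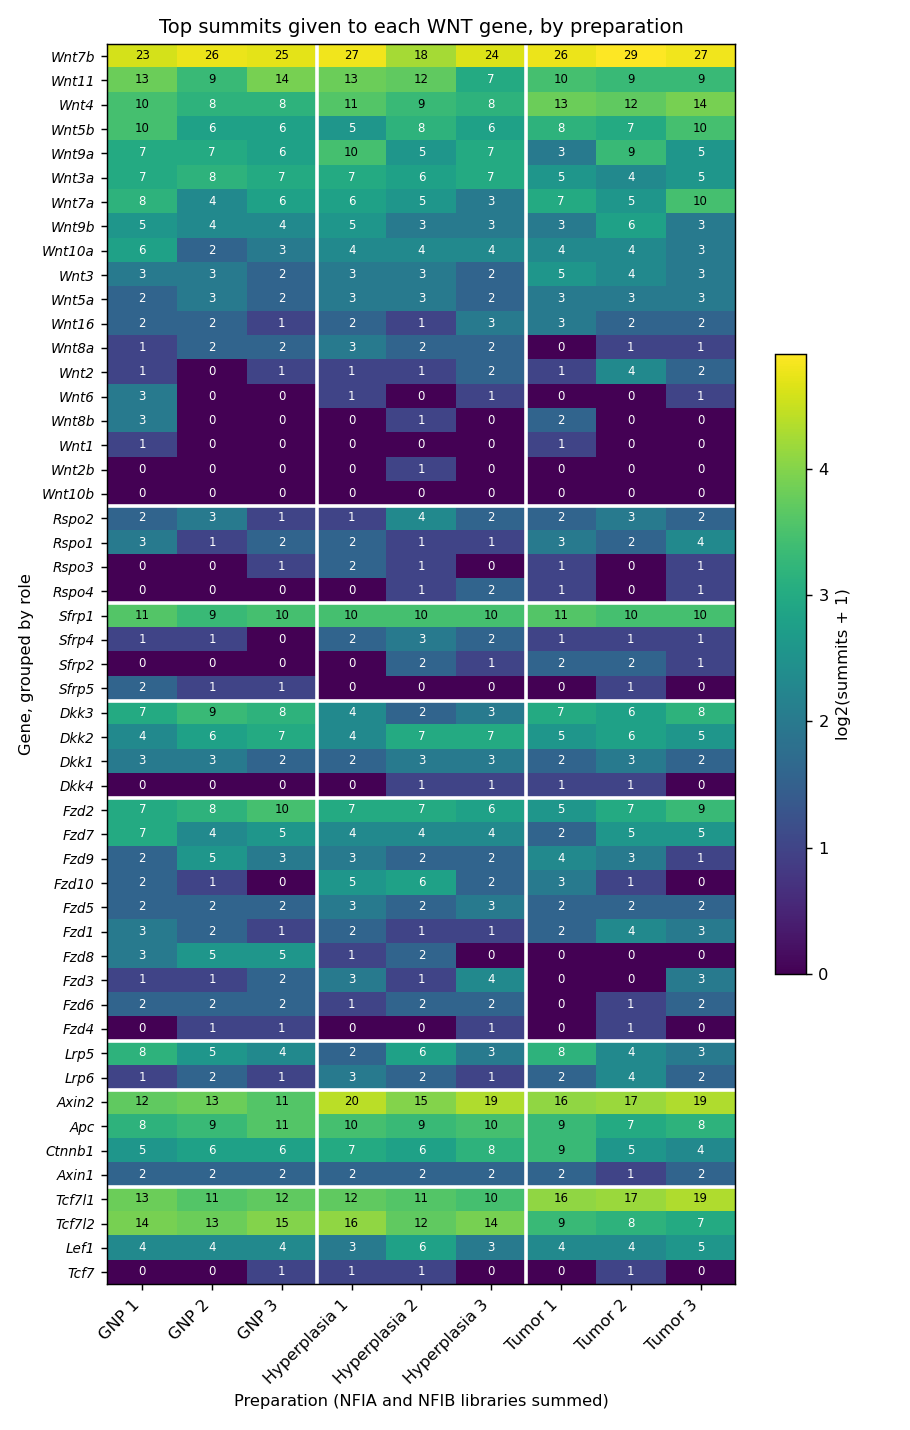
Top summits given to each of the 51 WNT genes (rows, grouped by role) in each of the 9 preparations (columns, NFIA and NFIB summed); colour is log2(summits + 1) and the printed number is the count. Wnt7b, Axin2, Tcf7l1 and Tcf7l2 have the most summits, and Wnt10b has none in any preparation.

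Summits were spread very unevenly over the ligands. Wnt7b, a ligand with roles in dendrite and blood vessel development of the brain, had the most of any WNT gene, 225 over the 9 preparations and 8.99 per 100 kb and library. Its preparations had 23, 26 and 25 summits in GNPs, 27, 18 and 24 in hyperplasia and 26, 29 and 27 in tumors. These stages overlapped. Wnt11, a ligand mainly of β-catenin-independent signalling, had 13, 9 and 14, then 13, 12 and 7, then 10, 9 and 9. Counted within 10 kb only, Wnt11 passed the test in hyperplasia and in tumors against GNPs, where 16 and 48 of 7592 genes did. Within 100 kb it did not pass, with fitted log2 fold changes of −0.19 and −0.32 (limma adjusted p = 0.802 and 0.603). Wnt4, known for its role in kidney and female gonad development, had 10, 8 and 8, then 11, 9 and 8, then 13, 12 and 14, so that tumors stood above both other stages. Wnt5b had 10, 6 and 6, then 5, 8 and 6, then 8, 7 and 10. Wnt3a, a canonical ligand, had 7, 8 and 7, then 7, 6 and 7, then 5, 4 and 5, with every tumor preparation below every other. At the low end, Wnt10b had no top summit, Wnt2b had 1, Wnt1 (needed to form the midbrain and cerebellum) 2, and Wnt6 and Wnt8b 6 each. Together 12 of the 19 ligands reached the mean of 2 summits per preparation needed for a test.

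The extracellular modulators differed in the same way. Sfrp1, an SFRP, had 91 summits with little spread: 11, 9 and 10 in GNPs, 10, 10 and 10 in hyperplasia and 11, 10 and 10 in tumors. Of the other SFRPs, Sfrp4 had 12 summits in all, Sfrp2 8 and Sfrp5 5. Dkk3, a divergent DKK family member, had 7, 9 and 8 summits in GNPs, 4, 2 and 3 in hyperplasia and 7, 6 and 8 in tumors, so that the hyperplasia preparations lay below all others. Among the other DKK genes, Dkk2 had 51, Dkk1 23 and Dkk4 4. R-spondin genes had few summits, from 5 at Rspo4 to 20 at Rspo2. Rspo1 had 3, 1 and 2, then 2, 1 and 1, then 3, 2 and 4.

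Among the receptors, Fzd2 had 66 summits within a small territory (6.55 per 100 kb and library): 7, 8 and 10 in GNPs, 7, 7 and 6 in hyperplasia and 5, 7 and 9 in tumors. Fzd8, too sparse for the test, had 3, 5 and 5 summits in GNPs, 1, 2 and 0 in hyperplasia and 0, 0 and 0 in tumors. No top summit was given to Fzd8 in any tumor library. Its mean over the 9 preparations was below 2, and in a fit without that filter the difference between tumors and GNPs had a limma adjusted p of 0.0513 and that between hyperplasia and GNPs 0.232. Fzd10 was marked most in hyperplasia, with 2, 1 and 0 in GNPs, then 5, 6 and 2, then 3, 1 and 0, and the ranges overlapped. All 6 summits of hyperplasia preparation 2 came from its NFIA library, and no site nearest to Fzd10 was shared by at least 3 libraries. Fzd1 had 3, 2 and 1, then 2, 1 and 1, then 2, 4 and 3. The coreceptors Lrp5 and Lrp6 had 43 and 18 summits in all.

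Inside the cell, Axin2, a scaffold of the destruction complex, had 12, 13 and 11 summits in GNPs, 20, 15 and 19 in hyperplasia and 16, 17 and 19 in tumors. Every hyperplasia and tumor preparation was above every GNP preparation, an order that did not hold with all deposited summits scaled to equal totals. Its relative Axin1 had 17 summits in all, too few for the test. Apc, another scaffold, had 8, 9 and 11, then 10, 9 and 10, then 9, 7 and 8, and Ctnnb1, which encodes β-catenin, had between 4 and 9 in every preparation. The TCF/LEF factors Tcf7l1 and Tcf7l2 had fitted differences of opposite sign in tumors against GNPs. Neither passed the test, the difference of Tcf7l1 was 0.10 after scaling by the share of each chromosome, and that of Tcf7l2 was 0.0277 with the 15000 highest summits. Tcf7l1, often a repressor of WNT targets, had 13, 11 and 12, then 12, 11 and 10, then 16, 17 and 19. Tcf7l2, in the brain a factor best known from thalamic neurons and maturing oligodendrocytes, had 14, 13 and 15, then 16, 12 and 14, then 9, 8 and 7. For both genes the tumor preparations did not overlap with the others. Lef1 had 37 summits in all and Tcf7 4.

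**Figure D2:**
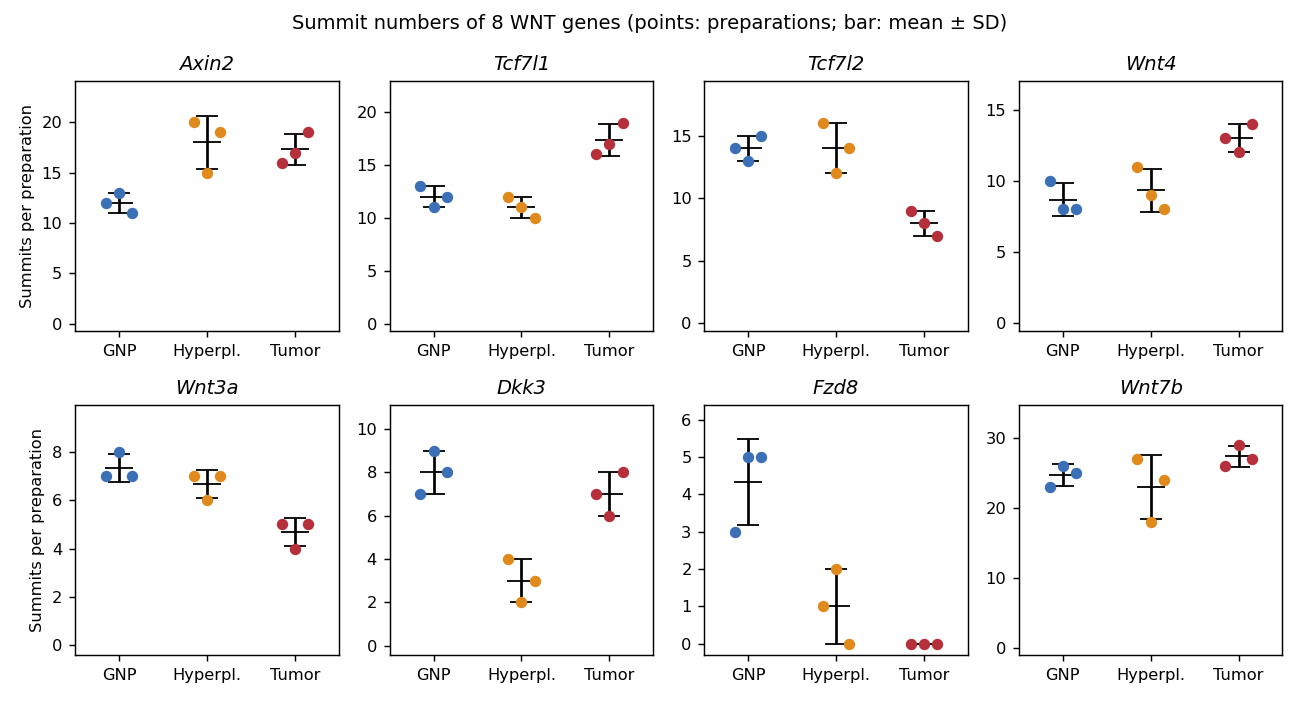
Summits per preparation (vertical axis) of 8 WNT genes in GNPs, hyperplasia and tumors; points are the 3 preparations of a stage and the bar is their mean ± SD. Axin2 is lowest in GNPs, Dkk3 lowest in hyperplasia, Tcf7l2 and Wnt3a lowest in tumors, and Fzd8 is 0 in all 3 tumor preparations; with all deposited summits scaled to equal totals the fitted differences of Axin2 from GNPs and of Dkk3 between tumor and hyperplasia turn sign, and with 15000 summits that of Tcf7l2 in tumors.

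Hyperplasia was compared with GNPs to ask which of these genes differ before a tumor has formed. Of the 32 WNT genes tested 0 passed a limma adjusted p of 0.05, where 0.175% of the 8589 genes tested did. At an unadjusted p under 0.05, 1 WNT gene was higher and 1 lower, that is 1 of 32 each way, where 6.52% of all genes were higher and 6.85% lower. Those were Axin2 and Dkk3. For Axin2, with 12 ± 1 summits in GNPs and 18 ± 2.65 in hyperplasia (SD, n = 3), the log2 fold change of (summits + 0.5) was 0.56 ± 0.13 (SE, limma adjusted p = 0.139), and it turned to −0.14 when all deposited summits were scaled to equal totals, where the median of all genes was −0.0588. With the 15000 highest summits, Axin2 passed the test (0.62, limma adjusted p = 0.0368). For Dkk3, with 8 ± 1 in GNPs and 3 ± 1 in hyperplasia (SD, n = 3), the log2 fold change was −1.31 ± 0.23 (SE, limma adjusted p = 0.0893). Dkk3 was below GNPs under every alternative run, from −0.18 with all summits scaled to −2.49 with genes within 10 kb. The median log2 fold change over the 32 genes was −0.00, with 16 higher and 16 lower, and that of all genes tested 0.

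Tumors were compared with GNPs to ask which genes differ in the tumor itself. Here 0 of the 32 WNT genes passed an adjusted p of 0.05 in limma (0.244% of all genes did), 3 were higher at an unadjusted p under 0.05 (7.52% of all genes) and 2 lower (7.29%). The lower ones were Tcf7l2 and Wnt3a. Tcf7l2 had 14 ± 1 summits in GNPs and 8 ± 1 in tumors (SD, n = 3), a log2 fold change of −0.77 ± 0.13 (SE, limma adjusted p = 0.0600), which became 0.0277 with the 15000 highest summits. Wnt3a had a log2 fold change of −0.60 ± 0.12 (SE, limma adjusted p = 0.0843), and was lower in tumors under every alternative. The higher ones were Tcf7l1, Wnt4 and Axin2. Tcf7l1, on chromosome 6, had 12 ± 1 summits in GNPs and 17.3 ± 1.53 in tumors (SD, n = 3), and its log2 fold change was 0.51 ± 0.11 (SE, limma adjusted p = 0.0843). With all summits scaled it was −0.0327, above the median of all genes there (−0.15). For Wnt4 the log2 fold change was 0.56 ± 0.14 (SE, limma adjusted p = 0.146), turning to −0.17 with 15000 summits and −0.41 with all summits scaled. For Axin2 it was 0.51 ± 0.13 (SE, limma adjusted p = 0.138), called with 15000 summits (0.62, adjusted p = 0.0334) and turning to −0.42 with all summits scaled.

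The balance of higher and lower WNT genes in tumors is given by chromosome, since chromosome 6 took a larger share of tumor summits. Of the 32 tested genes 19 had a positive and 13 a negative fitted difference from GNPs, with a median of 0.07. All 5 tested genes of chromosome 6 were higher, with a median log2 difference of 0.41, beside a median of 0.30 over the 490 tested genes of that chromosome. Off chromosome 6, 14 WNT genes were higher and 13 lower, with a median of 0.00, beside −0.01 over all genes there.

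Between tumors and hyperplasia, again 0 of 32 WNT genes passed in limma, and 0.0582% of all genes did. At an unadjusted p under 0.05, 5 were higher in tumors (5.86% of all genes) and 2 lower (5.45%). The higher ones were Dkk3 (log2 fold change 1.13, limma adjusted p = 0.175), Tcf7l1 (0.63, 0.111), Wnt4 (0.47, 0.295), and Rspo1 and Fzd1 (both 0.94, 0.407). With all deposited summits scaled, the median of all genes was −0.0843. Dkk3 (−0.42) and Rspo1 (−0.18) turned to below it, while Tcf7l1 (−0.0321), Fzd1 (−0.0238) and Wnt4 (0.03) stood above it. Lower were Tcf7l2 (−0.77, limma adjusted p = 0.111; 0.28 with 15000 summits) and Wnt3a (−0.48, 0.239). By the numbers in the top 30000, Dkk3 had fewer summits in hyperplasia than in either other stage, while Tcf7l1, Wnt4, Wnt3a and Tcf7l2 had similar numbers in GNPs and hyperplasia and other numbers in tumors. These 3 contrasts share preparations and are not independent.

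**Figure D3:**
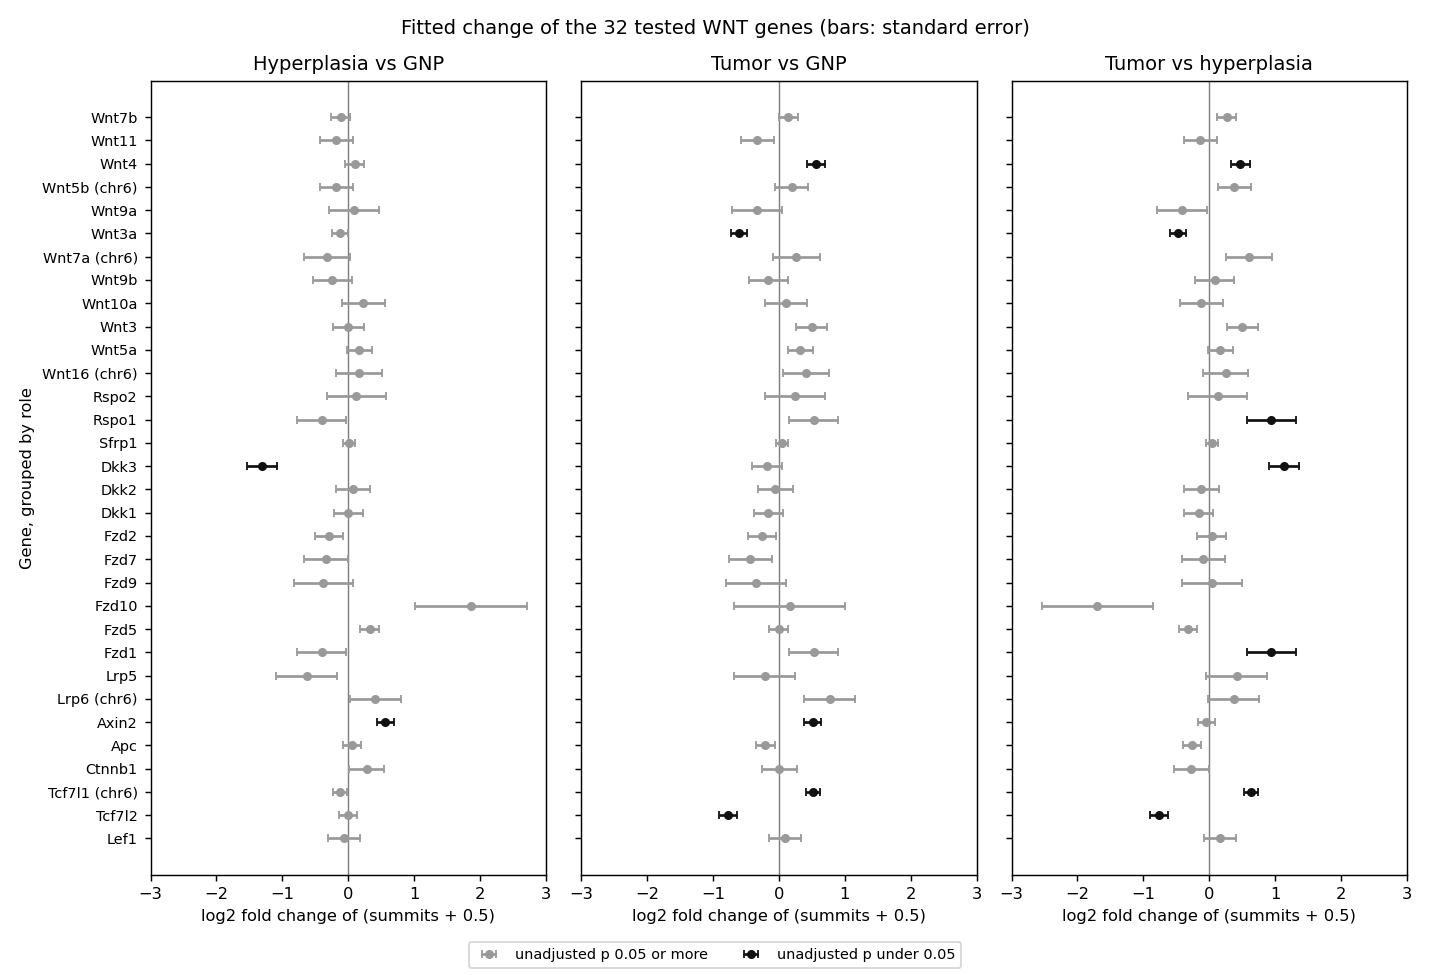
Fitted log2 fold change of (summits + 0.5) (horizontal axes) with its standard error for the 32 tested WNT genes in the 3 contrasts; black marks an unadjusted p under 0.05 and chr6 marks genes of chromosome 6. Dkk3 stands to the left in hyperplasia against GNP and to the right in tumor against hyperplasia, and Tcf7l1 and Tcf7l2 lie on opposite sides in both contrasts with tumors, where Tcf7l1 is near 0 and above the median of all genes with all summits scaled, Dkk3 turns in the last contrast, and Tcf7l2 turns with 15000 summits.

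The rest of the pathway was followed in a wider list. Of 56 other autosomal WNT genes (secretion, kinases, LGR and ROR receptors, planar polarity, corepressors), 42 were tested and 0 passed a limma adjusted p of 0.05 in any contrast. At an unadjusted p under 0.05, 4 of the 42 were higher and 4 lower in hyperplasia than in GNPs (6.52% and 6.85% of all genes). Tumors against GNPs gave 3 and 5 (7.52% and 7.29%), and tumors against hyperplasia 4 and 2 (5.86% and 5.45%). In hyperplasia, the kinase genes Csnk1a1 (log2 fold change 1.01) and Gsk3b (0.66), the glypican Gpc6 (0.44) and the receptor Ror1 (0.44) had more summits than in GNPs, though with all summits scaled Csnk1a1 turned to −0.15, below the median of all genes, and Ror1 was −0.0206, above it. Counted within 10 kb, Csnk1a1 did not differ (0). Csnk1a1 had 3, 4 and 2 summits in GNPs and 9, 4 and 7 in hyperplasia. The planar polarity cadherins Celsr2 (−0.36) and Celsr3 (−0.85), the inhibitor Nkd1 (−0.40) and the corepressor Tle3 (−0.21) had fewer. For Celsr3 the targets fitted alone gave opposite signs. It was at 0.45 in NFIA libraries, with 7 summits in GNPs and 9 in hyperplasia. In NFIB libraries it was at −1.95, with 16 and 3, and passed the test (limma adjusted p = 0.0469) in a fit that called 55 genes. The test given below of whether stage differences depended on the target called 0 genes in this contrast. In tumors, Celsr3 (−1.04), Tnks (−0.72), Tle3 (−0.37), Celsr2 (−0.36) and Bcl9l (−0.34) were below GNPs, and Lgr6 (0.66), Tle2 (0.62) and Apcdd1 (0.46) above. With all summits scaled, Tnks (0.15) turned, as did Lgr6 (−0.41) and Tle2 (−0.32), both below the median of all genes, and Apcdd1 was −0.0556, above that median. In tumors against GNPs, limma called Bcl9l (adjusted p = 0.0474) and Tle3 (0.0406) with all summits scaled and Tle2 (0.0333) with 15000 summits, with which Bcl9l did not differ (0). Celsr3 had 7, 7 and 9 summits in GNPs, 4, 4 and 4 in hyperplasia and 2, 5 and 4 in tumors, with no overlap between GNPs and the later stages. Tumors against hyperplasia gave Tle2 (0.78), Nkd1 (0.58), Celsr1 (0.54) and Apcdd1 (0.50) higher and Tnks (−0.80) and Invs (−0.49) lower, of which Nkd1 (−0.14) and Tnks (0.21) turned with all summits scaled, and Celsr1 was −0.0453, above the median of all genes.

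The libraries of NFIA and NFIB were compared to ask whether the targets differ at these genes. Of the 32 tested, 0 differed between the targets at a limma adjusted p of 0.05 (0% of all 8589 genes did), and 2 had an unadjusted p under 0.05, where 5.81% of all genes did. This fit left out the pairing of the 2 libraries of a preparation. Rspo1 had 14 summits in NFIA and 5 in NFIB libraries (log2 fold change −1.21 ± 0.28 SE, limma adjusted p = 0.517), and Wnt5a had 10 and 14 (0.33, adjusted p = 0.839). Wnt7b had 106 and 119, Axin2 67 and 75, Tcf7l1 63 and 58, and Tcf7l2 55 and 53. Axin2 and Dkk3 in hyperplasia had the same sign in both targets fitted alone: 0.54 and 0.66 for Axin2, and −1.15 and −1.34 for Dkk3, NFIA first. None of these passed the test (limma adjusted p = 0.768 and 0.461, and 0.568 and 0.194). Both genes were picked on the sum of the 2 targets, so that this agreement in sign is not separate support. Tcf7l1 in tumors against GNPs was at 0.23 in NFIA and 0.90 in NFIB libraries, and Tcf7l2 at −0.98 and −0.60. A test of whether the stage differences depended on the target, which also left out that pairing, called 0 genes in any contrast. At an unadjusted p under 0.05 it gave 2, 2 and 3 WNT genes (4.22%, 3.88% and 4.79% of all genes).

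At annotated start sites, summits were found at several Frizzled genes and at few ligands. Start sites were known for 33 of the 51 genes, and a start was counted as marked when a top summit lay within 500 bp. None of the 33 was marked in all 18 libraries (11.8% of 16457 genes were), and 20 (60.6%) in none (43.7% of all genes). Fzd2, Fzd3, Fzd6 and Fzd8 were not among the 33. Yet a region (defined below) 94 bp before the lower end of Fzd2 held a top summit in all 18 libraries. A region 33 bp beyond the higher end of Fzd3 did so in 11, and no region of Fzd6 or Fzd8 in more than 7. Of 15 WNT ligands 13 were never marked, and the others were Wnt16 in 2 libraries and Wnt7a in 1. Of the 6 Frizzled genes with a known start, 4 were marked in at least 9 libraries: Fzd5 in 17, Fzd4 in 16, Fzd7 in 13 and Fzd1 in 11. Fzd9 and Fzd10 were not marked. Over all roles, 7 of the 33 genes (21.2%) were marked in at least 9 libraries, as were 35.7% of all genes. At Fzd5 and Fzd4, whose sequences are given above, the median summit lay 111 and 124 bases before the start. Those summits at the start of Fzd4 that lie in the overlapping span of Tmem135 are missing from its gene count of 4. Other start summits were counted, such as those ranked 22054 in GNP preparation 2 (NFIA) and 24326 in tumor preparation 2 (NFIB). Whether roles differ in this share was not tested.

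The Axin2 start was marked in 2 of 6 GNP, 6 of 6 hyperplasia and 6 of 6 tumor libraries, with the median summit at +46 bp. In the 2 GNP libraries the summit ranked 17708 and 10873, and in the other stages between 3844 and 22779, where rank 1 is the highest score of a library. Ctnnb1 was marked in 1, 5 and 3 libraries of the 3 stages, with the median summit at +40 bp. Tcf7l1 was marked in 4, 2 and 3, and Tcf7l2 in 3, 3 and 1, while Lef1, Tcf7 and both R-spondin genes with a known start were not marked in any library.

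**Figure D4:**
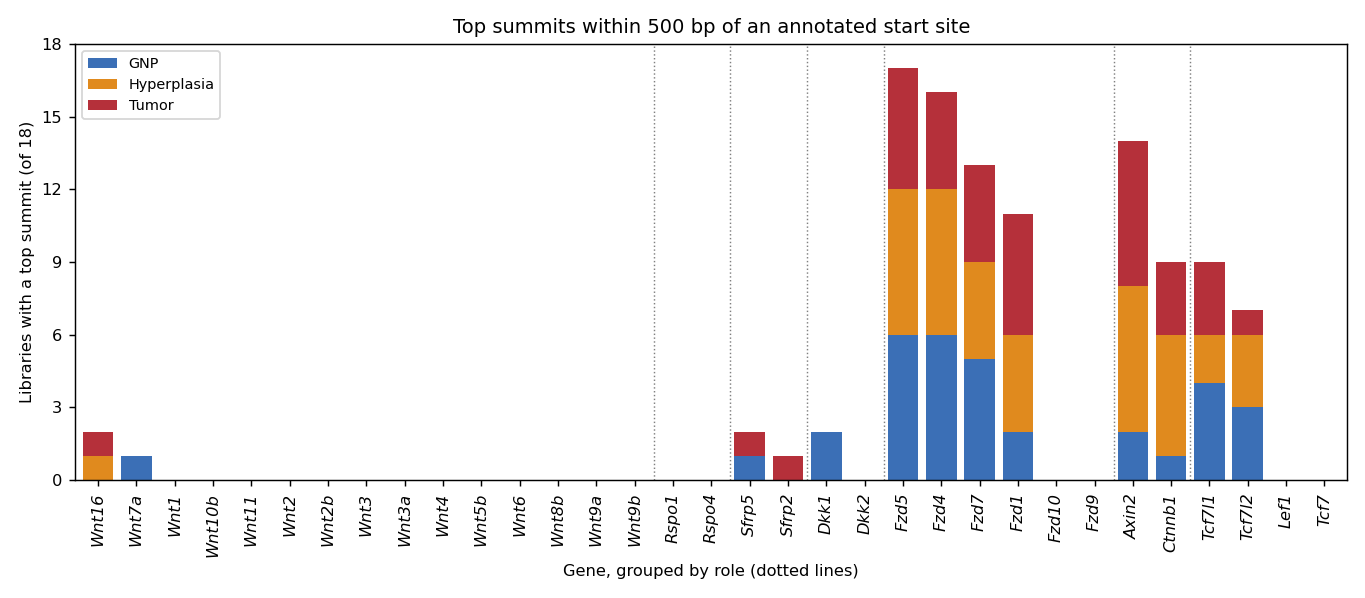
Number of the 18 libraries (vertical axis, stacked by stage) with a top summit within 500 bp of an annotated start of each of 33 WNT genes (horizontal axis, grouped by role; the start with the most libraries per gene). Fzd5, Fzd4, Axin2 and Fzd7 are marked in 13 to 17 libraries, and 13 of 15 ligands in none.

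Away from start sites, most NFI regions of WNT genes lay between genes. Regions were made by widening summits by 100 bp, merging them over the libraries and keeping those hit by at least 3. Of 41998 regions, 155 were nearest to a WNT gene, at 41 genes. Of the 155, 52.9% lay between genes, 34.8% inside a gene and 12.3% within 1 kb of a gene end, where all regions gave 35.3%, 42.5% and 22.2%. Wnt7b had 14 regions, Axin2 13 and Tcf7l2 10. In all 18 libraries, 22 of the 155 regions (14.2%) held a top summit, close to the 14.6% of all regions, and 16 of the 22 lay between genes. How many of all regions found in all 18 libraries lay between genes was not counted.

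The most highly ranked regions near WNT genes were distal. At Wnt7b, 5 regions held a summit in all 18 libraries. The best of them, chr15:85634499-85634762, 52.8 kb beyond the span, had ranks from 34 to 2200, and chr15:85610792-85611114, 29.1 kb beyond it, from 152 to 3710. At Sfrp1, chr8:23477705-23478009, 28.2 kb beyond the span, ranked from 39 to 2843. The Axin2 region chr11:109011717-109012029, 61.1 kb beyond the span and 91524 bp downstream of the start, was among the highest of the genome before the tumor stage. Its ranks were 3, 1, 199, 6, 2 and 62 in the GNP libraries and 5, 131, 17, 2, 165 and 3 in hyperplasia. In the tumor libraries they were 2000, 4529, 4603, 745, 385 and 1087. All 6 tumor libraries thus ranked it lower than all 12 others, although the summit number of Axin2 as a gene was higher in tumors than in GNPs with the 30000 top summits (and turned with all summits scaled). Of the 6126 regions found in all libraries, 1.68% were ranked lower in every tumor than in every GNP library, and 0.735% lower in every tumor than in every hyperplasia library. Among the 22 WNT regions these counts were 2 and 1. The other was a Wnt3a region at chr11:59239015-59240046, 8.51 kb from the span, with ranks of 288 to 4878 in GNPs, 9549 to 13199 in hyperplasia and 5667 to 29000 in tumors. It was also the 1 WNT region of 22 ranked lower in every hyperplasia than in every GNP library, which held for 2.69% of all such regions. In the other direction, another Wnt7b region, chr15:85613475-85613969, ranked from 769 to 2676 in tumors and from 3330 to 12719 in GNPs, 1 of 22 where 2.45% of all regions ranked higher in every tumor library. No WNT region ranked higher in every hyperplasia than in every GNP library (1.37% of all did) or higher in every tumor than in every hyperplasia library (1.35%). These non-overlaps were counted after the Axin2 ranks had been seen.

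The other 6 of the 10 regions with the best lowest rank were at Fzd2 (chr11:102604150-102604525, 94 bp before its lower end), Wnt10a (chr1:74797434-74797904, inside), Dkk1 (chr19:30450879-30451480, 94.7 kb away), Apc (chr18:34247489-34248415, inside), Wnt4 (chr4:137301597-137302011, 2.30 kb beyond its end) and Wnt7b, the region named last above. The one at Fzd2 ranked between 1436 and 11116.

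A region was called gained or lost when at least 5 of 6 libraries of one stage and at most 1 of 6 of the other held a top summit in it. In hyperplasia against GNPs, 2 of the 155 regions were gained and 6 lost, where 2.15% and 2.78% of all regions were. Tumors against GNPs gave 3 gained and 4 lost (2.28% and 2.52% of all), and tumors against hyperplasia 4 gained and 0 lost (1.20% and 1.08%). No test was made of these counts. Absence here means absence from the top 30000, since most of these regions held some lower-scoring deposited summit in several libraries of the stage where they were not counted.

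At Dkk3, 1 region inside the gene, chr7:112129811-112130484, followed the pattern of the gene as a whole. Its summits are part of the Dkk3 count, so this is not separate support. The region held a top summit in 6 of 6 GNP, 1 of 6 hyperplasia and 6 of 6 tumor libraries. Its ranks were 4181 to 11732 in GNPs, 17103 in the 1 hyperplasia library and 7395 to 23919 in tumors, and a deposited summit of any score lay there in all 6 hyperplasia libraries. Fzd9 had a region at chr5:135254038-135254464, 3.20 kb upstream of its start, with a top summit in 6 of 6 GNP libraries and 0 in either later stage, with some deposited summit in 4 hyperplasia and 2 tumor libraries. A pair of adjoining regions in Fzd8, chr18:9213216-9213659 and chr18:9213673-9214408, went from 5 GNP libraries each to 1 and 2 in hyperplasia and 0 in tumors, where 1 tumor library held any deposited summit in each. Tcf7l2 lost chr19:55985589-55986053, 52.2 kb beyond its span, with 5, 1 and 0 libraries in the order GNP, hyperplasia and tumor.

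The Dkk3 region counts among those gained in tumors against hyperplasia. Of the other regions gained in tumors, Axin2 gained chr11:109032675-109033184, 82.1 kb beyond its span, with 0, 2 and 6 libraries, and a deposited summit of any score in 5, 5 and 6. Wnt7b gained chr15:85569194-85569638, inside the gene, with 1, 0 and 6. Wnt11 gained chr7:98795871-98796444, 38.9 kb upstream, with 1, 1 and 5, and had lost chr7:98851370-98851861, inside the gene, in hyperplasia, with 5, 1 and 2. At Rspo1, chr4:125008174-125008702, near the 3′ end, held summits in 4, 1 and 6 libraries. Hyperplasia had most at the Ctnnb1 start region (chr9:120933199-120933669) and at Sfrp4 (chr13:19622671-19623396, 142 bp from its span), with 1, 5 and 3 libraries each. At Sfrp1, whose total varied little, chr8:23504595-23505534, 55.4 kb away, was held by 6, 1 and 4 libraries.

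**Figure D5:**
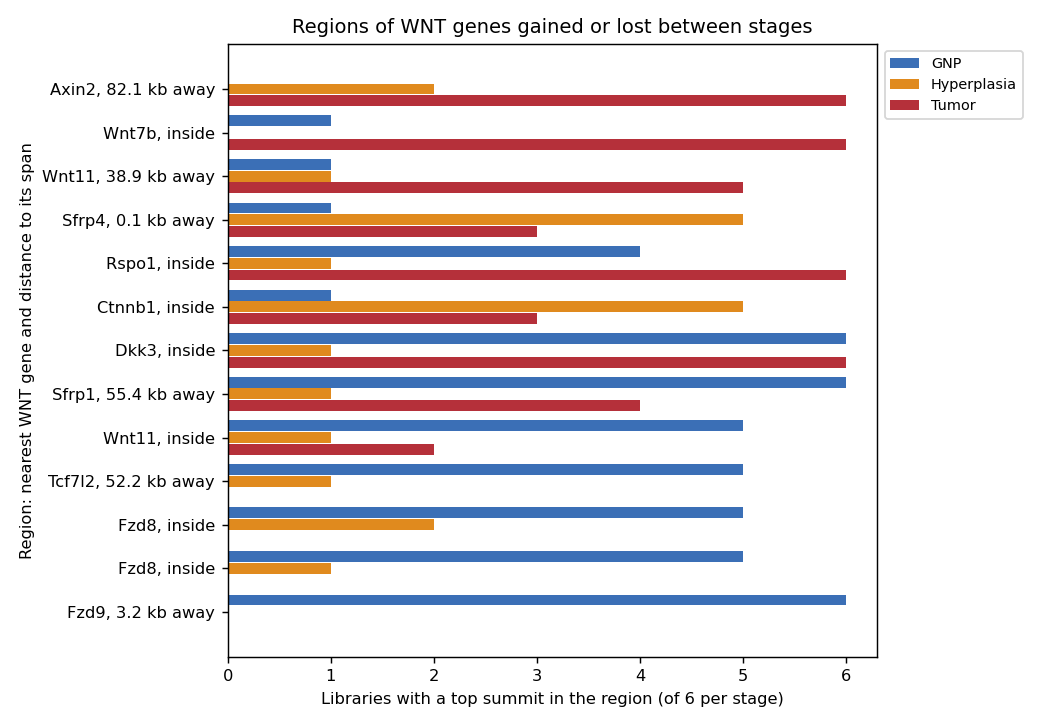
Libraries of each stage, of 6, with a top summit (horizontal axis) in the 13 regions nearest to WNT genes that were gained or lost in any contrast; each row names the nearest gene and the distance to its span. The Fzd9 region is held by 6 GNP libraries and none of the later stages, and the Dkk3 region by 6 GNP, 1 hyperplasia and 6 tumor libraries.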

How the data were processed

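NFIA and NFIB CUT&Tag summits were analysed in 18 mouse libraries (3 stages, 3 preparations each, 2 targets). Alignment with Bowtie2 to mm10 and peak calling with MACS2 are named in the submitters' processing notes; no version of either is given in the sources used here. In the authors' deposited lists each summit, called per library, has a −log10 score; whether it comes from a p-value or a q-value is not stated. The lowest score was 2.00, so weaker sites are missing, and depth is unknown. Because list length varied, the 30000 highest-scoring summits on the 19 autosomes were kept per library (ties in random order, seed 1). In the second hyperplasia NFIA library 20.4% of them were tied with the lowest one kept.

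Each summit went to the nearest of 20665 protein-coding RefSeq spans (GRCm38.p6, 1-based) within 100 kb, or the shortest of overlapping spans; 86.7% to 90.3% per library found one. NFIA and NFIB counts of a preparation were summed. Genes with a mean of at least 2 entered limma 3.58.1 (trend, empirical Bayes; R 4.3.3) on log2(summits + 0.5), stage as the only term, with Benjamini-Hochberg adjustment over all 8589 genes at 0.05. This scale understates changes of genes with few summits. Targets were compared per library (mean of at least 1) with stage as a term. Start sites were matched by symbol to the RefSeq promoter table. The test was also run on simulated counts with large changes planted in genes with many summits, which says nothing of small changes or sparse genes. Python 3.11.15, pandas 2.3.3, numpy 2.4.6 and matplotlib 3.10.9 were used. Preparations 1 and 2 of GNPs and hyperplasia share a title date, as do both preparations 3, and tumors have 3 other dates, so that date and stage cannot be told apart for tumors.

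The genes and lists were chosen with earlier results of these data known. Values in every preparation are given for the 10 WNT genes with the most summits and those with an unadjusted p under 0.05 in any stage contrast, fitted values for other pathway genes at the same p, the 10 best-ranked regions found in all libraries, and every gained or lost region; other genes were named after their values were seen. Alternatives covered the number of summits, scaling, distance, filter, pseudocount, seed, target, replicate block, date, file-name preparations (added after seeing the data) and each preparation left out.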

Additional observations from a re-analysis of the deposited data

How the results depend on the processing

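The count of genes called was unstable. For hyperplasia and then tumors, both against GNPs, and last for tumors against hyperplasia, limma called 15, 21 and 5 of all genes. It called 43, 46 and 10 with the 15000 highest summits, 25, 22 and 10 with NFIA libraries alone, 55, 63 and 17 with NFIB alone, 0, 314 and 5 after scaling all deposited summits to the same total, and 83, 124 and 41 with no filter. Scaling by chromosome share gave 8, 22 and 1, genes within 10 kb 16, 48 and 0, a pseudocount of 2 gave 3, 19 and 4, another seed 2, 21 and 5, file-name preparations (chosen after seeing the data) 19, 35 and 1, and title date as a term 2 in the first contrast. Leaving out 1 preparation gave 1 to 10, 1 to 25 and 1 to 6. With the replicate block the counts were 0, 1 and 1; same-numbered preparations of different stages correlated at 0.000113 to 0.0803 over 9 pairs, all positive and none over the 0.1 asked for to take the numbers as pairs. Of the 9 preparations, 8 had their highest correlation with a same-numbered one, and 5 had both such correlations above all others, a hint from the data and not the design.

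The count of WNT genes called was 0 in each contrast and stayed 0 except as follows. With 15000 summits it was 1 (Axin2) of 20 in hyperplasia and in tumors against GNPs, where 43 and 46 of 4911 genes were called. Within 10 kb it was 1 (Wnt11) of 26 in the same contrasts, where 16 and 48 of 7592 genes were. With all summits scaled it was 3 (Wnt6, Wnt9b and Rspo2) of 37 in tumors against GNPs, where 314 of 7335 genes were. When 1 preparation was left out, it was 0 to 1 in tumors against GNPs and 0 to 0 in the others. The 1 was Fzd8 without hyperplasia preparation 3, which then reached the mean of 2 through its GNP counts, so that this call supports nothing. Between the targets, 15000 summits called 1 gene and libraries with agreeing names 6, none a WNT gene. With all summits scaled the median of all genes was −0.0588, −0.15 and −0.0843 (7335 genes) and that of 37 WNT genes −0.13, −0.33 and −0.18. In some alternatives the fold change could not move by construction: no filter, replicate block, title date, and leaving out a preparation of a stage outside the contrast. Only the adjusted p could move there, so those runs do not test direction. Of 720 single-gene values, these included, 691 held direction and side of the threshold and 2 became 0 (Csnk1a1 within 10 kb, Bcl9l with 15000 summits). The 6 that came to pass it were Axin2 in both contrasts with GNPs and Tle2 with 15000 summits, Celsr3 with NFIB alone, and Bcl9l and Tle3 with all summits scaled. The 21 that changed sign were, with all summits scaled −0.14 (Axin2, hyperplasia), −0.42 (Axin2), −0.41 (Wnt4), −0.0327 and −0.0321 (Tcf7l1, against GNPs and hyperplasia), −0.15 (Csnk1a1), −0.0206 (Ror1), −0.41 (Lgr6), 0.15 and 0.21 (Tnks), −0.0556 (Apcdd1), −0.32 (Tle2), −0.18 (Rspo1), −0.0238 (Fzd1), −0.42 (Dkk3), −0.0453 (Celsr1) and −0.14 (Nkd1), of which Tcf7l1, Ror1, Apcdd1, Fzd1 and Celsr1 stayed above the median of all genes; with 15000 summits 0.0277 and 0.28 (Tcf7l2) and −0.17 (Wnt4); and with NFIA alone 0.45 (Celsr3). The causes were not tested.

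WNT regions gained and lost in hyperplasia were 2 and 6 of 155 (905 and 1167 of all 41998 regions). They became 0 and 1 (159 and 193 of all) when all 6 libraries against none were asked for. With summits widened by 50 bp they were 1 and 3 of 161 (788 and 1065 of 43431). With 15000 summits they were 1 and 1 of 78 (525 and 730 of 22916). In tumors against GNPs the 3 and 4 (957 and 1058 of all regions) became 1 and 1 (172 and 153) and 1 and 2 (773 and 1017), in the same order. With 15000 summits they were 3 and 1 (587 and 628). In tumors against hyperplasia the 4 gained (506 of all regions) became 1 with 6 against none (45) and 1 with 15000 summits (346). The 0 lost (452 of all) became 1 of 158 with 200 bp (473 of 41913). Leaving out 1 preparation, which asks for 3 of 4 libraries, gave 2 to 5 gained and 7 to 11 lost, 3 to 7 and 6 to 12, and 6 to 9 and 1 to 5. Counts over all regions rose as well in these runs. They were 1335 to 2217 gained and 1641 to 2207 lost, 1411 to 2234 and 1689 to 2145, and 881 to 1522 and 825 to 1534. Unknown depth and small whole counts limit every comparison.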
